A study of Glycine max with 18 samples.

Results

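The step from imbibition to metabolic reactivation was examined in TW-1, a low-phytate soybean mutant. The 3 RNA-seq libraries of TW-1 seeds at the reactivation stage (TW-1-2) were compared with the 3 libraries of TW-1 seeds at the imbibition stage (TW-1-1). These 6 libraries were taken by their labels from the 18 libraries of the series, which cover 2 mutants at 3 germination stages with 3 libraries each. The parent of TW-1 is the variety Taiwan 75, which was treated with gamma rays. TW-1 carries a 2-bp deletion in GmMIPS1, the gene of an enzyme that makes inositol phosphate, the precursor of phytate. TW-1-M arose naturally within TW-1, has the same deletion and emerges better in the field. Both mutants are low-phytate lines, so no seed with an intact GmMIPS1 was analysed, and the deletion is shared by both sides of every comparison given here. The TW-1-2 seeds were taken 12 h after the end of imbibition according to the labels, whereas the methods of the study count hours from soaking and give a shorter gap, which could not be settled here. Stage 3 was reached when the root was 1 mm long. RNA came from whole seeds, so a change in the share of one cell type and a change in RNA per cell cannot be told apart. The labels do not say that the replicates were separate seed lots, so the p-values measure only the spread between these libraries.

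A mature legume seed holds oil, storage proteins, raffinose family oligosaccharides (RFOs) and a set of protective proteins made late in seed filling. The messenger RNAs for late embryogenesis abundant (LEA) proteins, small heat shock proteins and RFO synthesis are stored in the dry seed, and they are known to decline as germination proceeds. Before the root emerges, seeds resume respiration and protein synthesis, and later loosen their cell walls, build a new cytoskeleton and enter cell division. Phytate, the storage form of phosphorus, is broken down by phytases, some of which belong to the purple acid phosphatase family.

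Expression was given as FPKM, fragments per kilobase of transcript scaled to the mapped fragments of the library, and was compared on the log2(FPKM + 1) scale, which understates the change of genes with low values. A differentially expressed gene (DEG) was defined, with the thresholds of the study, by an unadjusted p-value below 0.05 in limma together with a log2 fold change above 1 in size. Fold changes are TW-1-2 over TW-1-1, values per library are in the order of replicates 1, 2 and 3, and ± is the standard error. Of 45955 genes in the deposited table, 27150 reached 1 FPKM in at least 3 of the 18 libraries and were tested. The files hold no read counts, so the depth behind each value is unknown.

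One library stood apart from its label. Replicate 1 of TW-1-2 correlated with the TW-1-1 libraries at 0.947 to 0.969 (Pearson's r across genes, which are not independent replicates) and with the other two TW-1-2 libraries at 0.911 and 0.919, while those correlated at 0.976 with each other. The 3 TW-1-1 libraries correlated at 0.948 to 0.974 among themselves. The labels and files give no batch or date. Replicate 1 of TW-1-2 was kept in the main comparison, and counts without it are given for each list that holds DEGs. It was singled out by its values after the data had been seen, so leaving it out removes spread within TW-1-2 by construction. Adjusted p-values and counts without it are therefore descriptions and no support for a gene or list.

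In all, 761 genes were DEGs (2.8% of the genes tested). Of these, 547 genes (2.01%) were higher and 214 genes (0.788%) were lower in TW-1-2. No gene had a Benjamini-Hochberg adjusted p-value below 0.05 over all genes tested, the smallest being 0.159 in limma, although 3482 genes had an unadjusted p-value below 0.05. The adjusted p-values of all other DEGs lay between 0.372 and 0.389 in limma, so single DEGs below are descriptions at the unadjusted threshold. Without replicate 1 of TW-1-2, the DEGs numbered 2727 (2070 higher and 657 lower), and 1953 genes passed the adjusted p-value in limma, of which 1581 were higher (5.82%) and 372 were lower (1.37%). Leaving out replicate 2 of TW-1-1 turned the majority, with 273 DEGs higher and 416 lower.

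The higher and lower DEGs differed in abundance. The lower DEGs were abundant transcripts, with a median level of 19.5 FPKM in TW-1-2 and 49.2 FPKM in TW-1-1, and 64 of the 214 averaged at least 100 FPKM over the 6 libraries. The higher DEGs were less abundant, with a median level of 5.94 FPKM in TW-1-2 and 1.58 FPKM in TW-1-1, and 6 of the 547 averaged at least 100 FPKM. Over all genes tested, the median log2(FPKM + 1) was 2.70, 2.77 and 2.74 in TW-1-2 and 2.70, 2.64 and 2.69 in TW-1-1. The higher DEGs were thus near the typical level in TW-1-2 and below it in TW-1-1. The share of all genes tested that averaged at least 100 FPKM is not given here. For 157 of the higher DEGs all 3 TW-1-1 libraries were below 1 FPKM. The median log2 fold change was 1.28 among the higher and -1.15 among the lower DEGs, as the threshold of 1 sets a floor under both. Nearest to that threshold, the DEG just inside had a log2 fold change of 1.0009 among the higher and -1.0002 among the lower, and the gene just outside had 0.99999 and -0.9982.

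The libraries of the 2 stages did not overlap for 177 of the 214 lower DEGs and for 322 of the 547 higher DEGs. Over all genes tested, 10.2% were lower and 8.07% were higher without overlap. In replicate 1 of TW-1-2 the value lay within the range of TW-1-1 for 221 of the higher DEGs and for 36 of the lower DEGs. In the annotation used here, 224 of the DEGs had a gene name other than uncharacterized, 154 higher and 70 lower. The largest log2 fold change, 3.63 ± 0.79, belonged to XM_003521922.3, one of the DEGs without a name. It had 6.26, 51.1 and 36.1 FPKM in TW-1-2, against 3.05, 0.46 and 0.25 FPKM in TW-1-1.

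Genes were grouped in 28 lists by function. Most names came from the annotation in the supplement of the study, which covers genes the study had selected between the 2 mutants on libraries that include these 6, so a list's direction is not independent evidence. Among the 2979 genes of that annotation that were tested, 5.17% were DEGs higher and 2.79% were DEGs lower, and the counts of the lists are to be read against these shares as well as those over all genes.

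**Figure D1:**
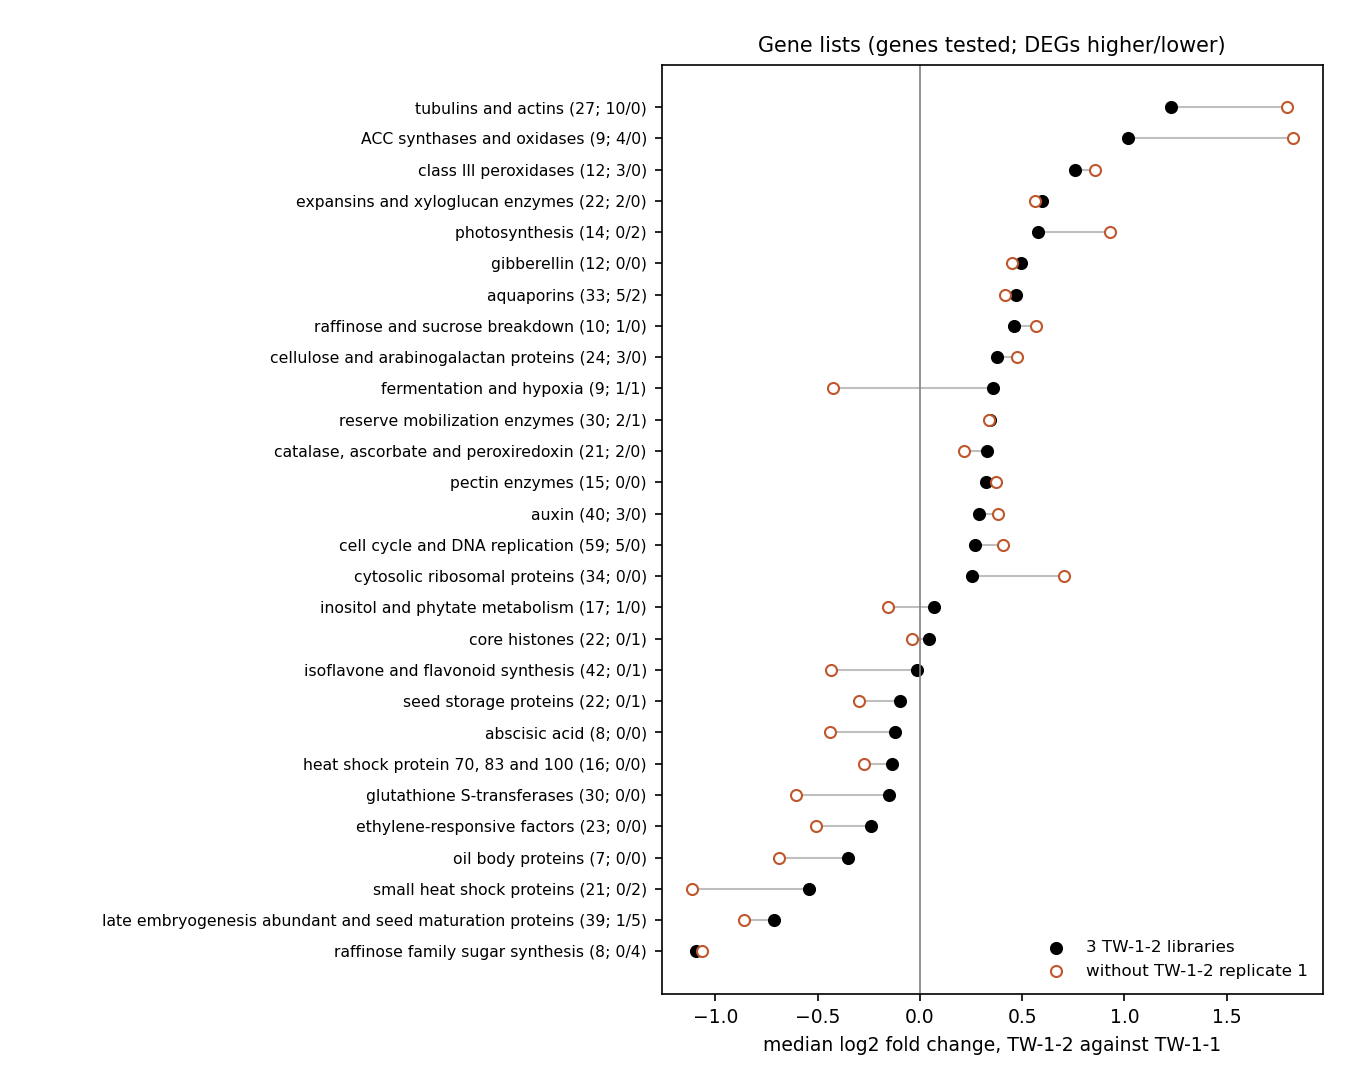
Median log2 fold change of each of the 28 gene lists (horizontal axis, TW-1-2 against TW-1-1, log2(FPKM + 1) scale), with filled points for all 3 TW-1-2 libraries and open points without replicate 1 of TW-1-2; brackets give the genes tested and the DEGs higher and lower. Tubulins and actins lie highest at 1.23 and raffinose family sugar synthesis lowest at -1.09, and 3 lists (fermentation, inositol and phytate, core histones) change sign without replicate 1.

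The genes of RFO synthesis were lower together at reactivation. RFOs are galactose-bearing sugars, among them raffinose and stachyose, that legume seeds accumulate as they dry. All 8 genes tested had a negative log2 fold change, with a median of -1.09, against 0.00 over all genes tested. Of the 8 genes, 4 were DEGs lower and none was higher. The libraries of the 2 stages did not overlap for 6 of them.

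Galactinol synthase makes galactinol, the galactose donor of the pathway. Galactinol synthase 1 (XM_003521556.3) had 913, 558 and 609 FPKM in TW-1-2, against 1464, 1246 and 1902 FPKM in TW-1-1. Every TW-1-2 library lay below every TW-1-1 library, with a log2 fold change of -1.16 ± 0.32 (limma, unadjusted p = 0.00801, adjusted p = 0.372). A second galactinol synthase gene, GOLS (NM_001251098.1), had 37.9, 46.8 and 70.2 FPKM in TW-1-2, against 139.7, 71.0 and 150.2 FPKM in TW-1-1. Its libraries also did not overlap, though only by a narrow gap, and the log2 fold change was -1.18 ± 0.35. Galactinol synthase 2 (XM_003554563.3) was not a DEG, at 318, 303 and 385 FPKM in TW-1-2 and 669.7, 335 and 697 FPKM in TW-1-1.

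Galactinol-sucrose galactosyltransferase, the raffinose-forming step, showed the same order. XM_006581848.2 had 280.0, 140.3 and 156 FPKM in TW-1-2, against 579, 355 and 478 FPKM in TW-1-1, a log2 fold change of -1.33 ± 0.33 (unadjusted p = 0.00503 in limma). A related gene, XM_003525498.3, missed the fold threshold at -0.86 ± 0.25, with 269 to 385 FPKM in TW-1-2 and 474 to 661 FPKM in TW-1-1. Stachyose synthase (XM_003554508.3), which adds a further galactose to raffinose, had 177, 90.2 and 87.7 FPKM in TW-1-2, against 329, 188 and 257 FPKM in TW-1-1. For these 3 genes replicate 1 was the highest of the TW-1-2 libraries and still below all TW-1-1 libraries. Without it, the log2 fold changes of galactinol synthase 1, XM_006581848.2 and stachyose synthase were -1.37, -1.64 and -1.49, and all 3 passed the adjusted p-value (0.0453, 0.0247 and 0.0317 in limma), while GOLS did not (0.144).

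The breakdown of RFOs and sucrose was measured by 10 genes, of which 1 was a DEG higher and none was lower, with a median of 0.46. The DEG was acid beta-fructofuranosidase (XM_003525755.3), an invertase that splits sucrose. Its level was 1.01, 11.5 and 5.97 FPKM in TW-1-2, against 0.83, 0.55 and 0.84 FPKM in TW-1-1, so replicate 1 stood just above the TW-1-1 range and the other two well above it. An alpha-galactosidase-like gene (XM_003548228.3), named for the enzyme that removes galactose from RFOs, had lower values in every TW-1-2 library than in any TW-1-1 library. It had 44.9, 34.8 and 51.2 FPKM in TW-1-2, against 76.5, 74.3 and 83.4 FPKM in TW-1-1, and was no DEG because its log2 fold change of -0.84 ± 0.20 missed the fold threshold (unadjusted p = 0.00358 in limma).

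**Figure D2:**
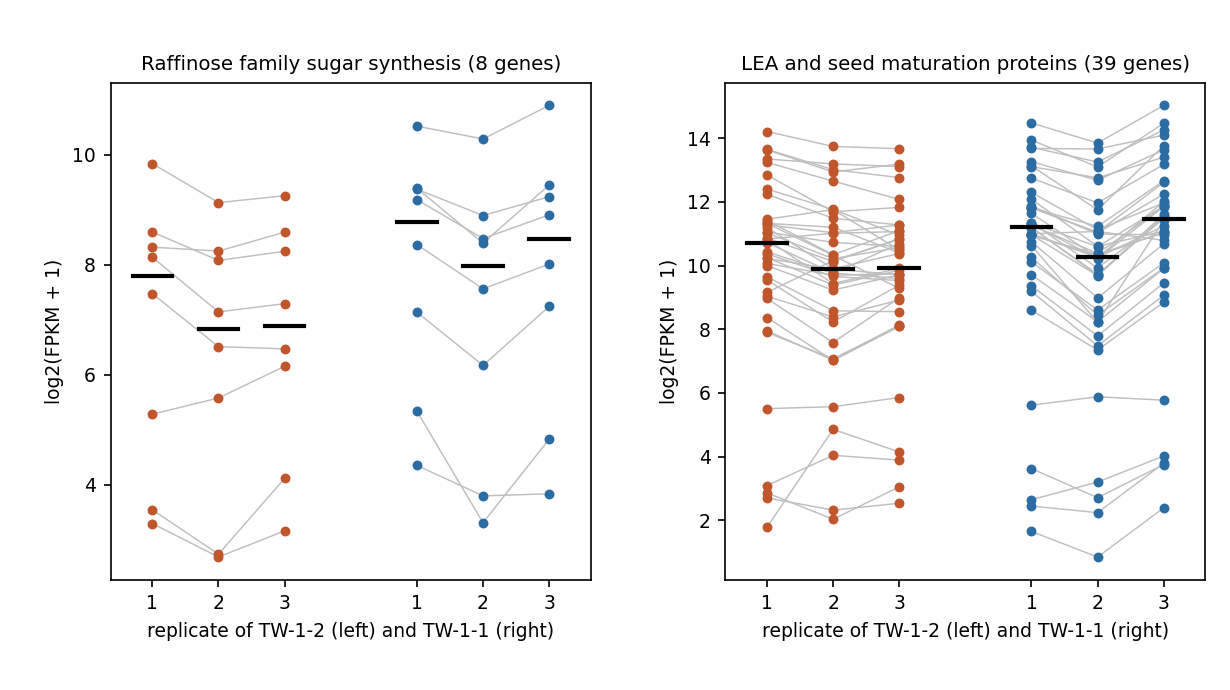
Level of each gene on the log2(FPKM + 1) scale (vertical axis) in each replicate of TW-1-2 (orange, left) and TW-1-1 (blue, right) for 8 genes of raffinose family sugar synthesis and 39 LEA and seed maturation genes; grey lines join a gene's values within a stage and black bars are medians. The RFO medians are 7.80, 6.83 and 6.88 in TW-1-2 and 8.77, 7.98 and 8.46 in TW-1-1, and replicate 2 of TW-1-1 has the lowest LEA median of its stage.

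LEA and seed maturation proteins, which protect cells during drying, made up the most abundant group. Of 39 genes tested, 36 had a negative log2 fold change, with a median of -0.71. Of these genes, 5 were DEGs lower and 1 was a DEG higher. The genes of the list took 11.5, 9.16 and 9.40% of the summed FPKM in TW-1-2 and 13.7, 9.67 and 17.5% in TW-1-1, so replicate 2 of TW-1-1 lay within the range of TW-1-2.

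Seed maturation protein PM36 (NM_001251400.1) had 5416, 3485 and 1987 FPKM in TW-1-2, against 8835, 6919.9 and 10873 FPKM in TW-1-1, and PM24 (NM_001250577.1) had 1025, 601 and 838 FPKM, against 2452, 1338 and 3695 FPKM. Both were separated between the stages in every library, with log2 fold changes of -1.38 ± 0.52 and -1.52 ± 0.44. PM26, the 24 kDa seed maturation protein and an LEA protein D-34-like gene were DEGs lower at -1.33, -1.36 and -1.24, but in each of these 3 genes replicate 2 of TW-1-1 lay within the range of TW-1-2. Desiccation protective protein LEA5, which was not a DEG, had 10441, 9388 and 8850.0 FPKM in TW-1-2 and 13142, 12984 and 17562 FPKM in TW-1-1 (log2 fold change -0.60 ± 0.51, unadjusted p = 0.278 in limma). The member in the other direction, LEA-1 (NM_001254648.2), had 2.44, 28 and 16.7 FPKM in TW-1-2, against 2.14, 0.80 and 4.25 FPKM in TW-1-1, a log2 fold change of 1.97 ± 0.79. Without replicate 1 of TW-1-2, the list median was -0.86, and 1 gene was higher and none was lower at the adjusted p-value.

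Small heat shock proteins are chaperones that keep unfolded proteins from clumping, and seeds store their messenger RNAs. Of 21 genes tested, 18 had a negative log2 fold change, with a median of -0.54, and 2 were DEGs lower. The list summed to 5993, 2942 and 2093 FPKM in TW-1-2 and 5836, 3161 and 7588 FPKM in TW-1-1. Replicate 1 of TW-1-2 thus lay within the TW-1-1 range of the sum. The 17.4 kDa class III heat shock protein (XM_003528659.3) had 78.8, 73.5 and 52.0 FPKM in TW-1-2, against 206, 119 and 347 FPKM in TW-1-1, with no overlap and a log2 fold change of -1.59 ± 0.39. The other DEG was a chloroplastic-like small heat shock protein at -1.34. The 26.5 kDa mitochondrial protein was just short of the fold threshold at -0.99 ± 0.35, with 314, 181 and 125 FPKM in TW-1-2 and 338, 359.9 and 458 FPKM in TW-1-1. None of the 16 larger chaperones (heat shock proteins 70, 83 and 100) was a DEG, and their median was -0.14.

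The gene with the smallest p-value of all was KTI1 (NM_001250776.2), which encodes a Kunitz trypsin inhibitor, a seed protein that blocks digestive proteases. It had 64.4, 60.3 and 53.0 FPKM in TW-1-2, against 256, 265 and 313 FPKM in TW-1-1. All 3 TW-1-2 libraries, replicate 1 included, lay far below the lowest TW-1-1 library. The log2 fold change was -2.21 ± 0.18 (limma, unadjusted p = 5.84e-06, adjusted p = 0.159), and it was -2.27 with an adjusted p-value of 0.0138 in limma without replicate 1. KTI1 was the only DEG among 22 seed storage protein genes tested, whose median was -0.10.

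Other abundant seed transcripts were lower as well. Metallothionein-II (NM_001250480.1), a small metal-binding protein, had 1537, 865 and 999 FPKM in TW-1-2, against 2888, 1529.9 and 3376 FPKM in TW-1-1. These libraries overlapped by a few FPKM, and the log2 fold change was -1.16 ± 0.42. P34 (NM_001251290.1) is a seed protein of the thiol protease family known as a soybean allergen. It had 16.2, 11.6 and 11.0 FPKM in TW-1-2, against 63.9, 23.1 and 42.9 FPKM in TW-1-1, a log2 fold change of -1.58 ± 0.37. The WD-40 repeat protein MSI2-like gene (NM_001255049.2), of a family that binds histones, had 91.0, 55.6 and 55.1 FPKM in TW-1-2, against 240.3, 186 and 245 FPKM in TW-1-1. It was lower in every TW-1-2 library, with a log2 fold change of -1.75 ± 0.26 (unadjusted p = 0.000241 in limma) and of -1.98 without replicate 1 (adjusted p = 0.0141). A dihydroflavonol-4-reductase-like gene (NM_001255219.2), named for a step of anthocyanin synthesis, was lower at -1.78 ± 0.54 and was the only DEG among 42 genes of isoflavone and flavonoid synthesis, whose median was -0.01.

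Among the genes that were higher, tubulins and actins had the highest median of the 28 lists. Tubulins build microtubules, which guide cellulose deposition in growing cells and form the spindle of dividing ones, and actin filaments carry vesicles. Of 27 genes tested, 26 had a positive log2 fold change, with a median of 1.23, and 10 were DEGs higher and none was lower. Tubulin genes, like the other families named here, have near-identical copies whose reads can be split between them, so values of single members are uncertain.

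The tubulin beta chain gene XM_003546228.3 had 12.8, 28.8 and 27.2 FPKM in TW-1-2, against 6.08, 5.87 and 8.73 FPKM in TW-1-1. Its libraries did not overlap, and the log2 fold change was 1.54 ± 0.33 (unadjusted p = 0.00238 in limma). The tubulin alpha chain gene XM_003536522.3 had 9.88, 33.9 and 29.4 FPKM in TW-1-2, against 5.69, 3.99 and 7.69 FPKM in TW-1-1 (1.77 ± 0.46). In a more abundant member replicate 1 lay within the range of the imbibed seeds. Tubulin alpha-3 (XM_003524659.3) had 31.0, 133 and 112 FPKM in TW-1-2, against 31.1, 17.7 and 33.6 FPKM in TW-1-1. Summed over the list, tubulins and actins reached 399, 1743 and 1483 FPKM in TW-1-2 and 411, 260 and 583 FPKM in TW-1-1. Replicate 1 therefore lay within the TW-1-1 range of the sum, and only 5 of the 27 genes had no overlap between the stages, all of them higher. Without replicate 1, the median was 1.79 and 18 genes were higher at the adjusted p-value.

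Several ACC oxidases, which catalyse the last step of ethylene synthesis, were higher. ACC synthase makes 1-aminocyclopropane-1-carboxylate (ACC), and ACC oxidase turns it into ethylene, a hormone that promotes germination in many seeds. Of 9 genes tested, 8 had a positive log2 fold change, with a median of 1.02, and 4 were DEGs higher, all of them ACC oxidases. The stages did not overlap for any of these 4 genes.

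ACC oxidase 1 (XM_003525262.3), the most abundant of the 4, had 80.7, 369 and 212 FPKM in TW-1-2, against 79.7, 70.1 and 72.5 FPKM in TW-1-1. Replicate 1 exceeded the highest TW-1-1 library by only 1 FPKM. The log2 fold change was 1.31 ± 0.51 (unadjusted p = 0.0355 in limma), and 1.91 with an adjusted p-value of 0.0198 without replicate 1. The oxidase 5-like gene NM_001253215.1 had 3.26, 29.9 and 38.2 FPKM in TW-1-2, against 2.15, 1.15 and 2.99 FPKM in TW-1-1, the widest log2 fold change of the list at 2.53 ± 0.81. The oxidase 1-like gene XM_003529033.3 had 5.04, 27.3 and 14.2 FPKM in TW-1-2, against 2.36, 1.54 and 2.51 FPKM in TW-1-1. Here replicate 1 lay between the stages, and the log2 fold change was 2.15 ± 0.53 (unadjusted p = 0.0047 in limma). The remaining 5 genes of the list were not DEGs, and among them were abundant ACC oxidases whose libraries varied widely within a stage. The oxidase-like gene XM_003529605.2 had 34.2, 248 and 257 FPKM in TW-1-2 and 80.0, 3.43 and 86.2 FPKM in TW-1-1 (unadjusted p = 0.154 in limma). The oxidase 1-like gene XM_003530496.3 had 4.12, 68.4 and 75.5 FPKM in TW-1-2 and 58.4, 1.19 and 66.2 FPKM in TW-1-1 (unadjusted p = 0.736 in limma). In both genes replicate 2 of TW-1-1 was low and replicate 1 of TW-1-2 was below the other two of its stage. None of 23 ethylene-responsive transcription factors tested was a DEG, and 18 of them had a negative log2 fold change, with a median of -0.24.

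**Figure D3:**
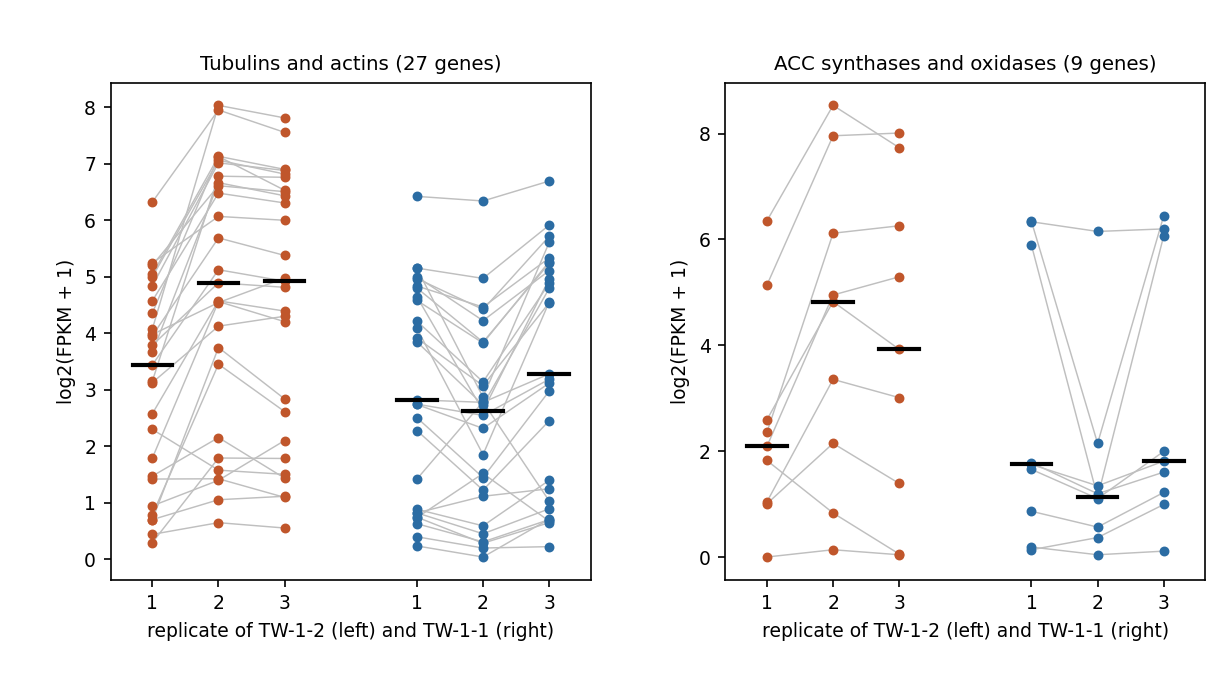
Level of each gene on the log2(FPKM + 1) scale (vertical axis) in each replicate of TW-1-2 (orange, left) and TW-1-1 (blue, right) for 27 tubulin and actin genes and 9 ACC synthase and oxidase genes; grey lines join a gene's values within a stage and black bars are medians. The tubulin and actin medians are 3.44, 4.90 and 4.92 in TW-1-2 and 2.82, 2.63 and 3.28 in TW-1-1, and replicate 1 of TW-1-2 lies near the TW-1-1 libraries in both lists.

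Class III peroxidases, secreted enzymes that cross-link or loosen the cell wall, were positive in all 12 genes tested, with a median of 0.76 and 3 DEGs higher. Peroxidase 73-like (NM_001255473.2) had 14.5, 46.7 and 21.1 FPKM in TW-1-2, against 1.40, 5.51 and 3.89 FPKM in TW-1-1. All 3 TW-1-2 libraries, replicate 1 included, were more than 2 times as high as the highest TW-1-1 library, and the log2 fold change was 2.58 ± 0.51 (unadjusted p = 0.0014 in limma). Peroxidase 15-like (XM_014761536.1) had 61.5, 103 and 63.3 FPKM in TW-1-2, against 20.3, 20.3 and 49.9 FPKM in TW-1-1 (1.39 ± 0.39). The third was peroxidase 51-like at 1.84.

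Other wall lists had positive medians with few genes past the threshold. Expansins loosen the wall by breaking bonds between cellulose and other polymers. Of 22 expansin and xyloglucan enzyme genes, 19 had a positive log2 fold change, with a median of 0.60, and 2 were DEGs higher. The expansin gene NM_001250921.1 had 38.7, 164 and 196 FPKM in TW-1-2, against 53.9, 21.1 and 38.5 FPKM in TW-1-1, so replicate 1 lay inside the TW-1-1 range. Only 1 gene of this list had no overlap between the stages, and it was lower. That gene, expansin-A1-like (XM_003549635.3), had 109, 64.0 and 82.4 FPKM in TW-1-2, against 128, 114 and 182 FPKM in TW-1-1. Its log2 fold change of -0.73 ± 0.27 missed the fold threshold. Of 24 genes of cellulose synthesis and arabinogalactan proteins, 19 had a positive log2 fold change, with a median of 0.38, and 3 were DEGs higher. One of them, lysine-rich arabinogalactan protein 18-like (XM_003524627.2), a glycoprotein of the cell surface, had 13.5, 54.6 and 23.5 FPKM in TW-1-2, against 4.98, 3.64 and 8.73 FPKM in TW-1-1, a log2 fold change of 2.06 ± 0.51 with no overlap. None of 15 pectin enzyme genes was a DEG, though 13 had a positive log2 fold change, with a median of 0.32. The beta-1,3-endoglucanase gene NM_001251545.1, of a family that degrades callose and is linked to weakening of seed covers, had 302, 329.9 and 134 FPKM in TW-1-2, against 64.9, 149 and 54.2 FPKM in TW-1-1. Here replicate 1 was among the high libraries and replicate 3 was below one TW-1-1 library, with a log2 fold change of 1.55 ± 0.48. A more abundant gene named endo-1,3-beta-glucanase (NM_001250342.1) went the other way, without overlap. It had 563, 255 and 305 FPKM in TW-1-2, against 612, 704 and 605 FPKM in TW-1-1. Its log2 fold change of -0.86 ± 0.33 missed the fold threshold.

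The widest changes among the named higher DEGs were found in genes with low FPKM at imbibition. The gene annotated as putative surface protein SACOL0050 (XM_003546135.3) had 24.5, 162 and 73.0 FPKM in TW-1-2, against 3.58, 6.67 and 14.4 FPKM in TW-1-1, a log2 fold change of 3.05 ± 0.71. That name is a bacterial one carried over by the annotation, and no role is given to it here. Pyruvate decarboxylase 2 (XM_003516906.3), the first step of ethanol fermentation, had 9.05, 29.7 and 15.0 FPKM in TW-1-2, against 7.73, 0.39 and 1.28 FPKM in TW-1-1 (2.49 ± 0.71). A more abundant gene of the same name, XM_003552219.3, was not a DEG, at 628, 287 and 260.2 FPKM in TW-1-2 and 516, 407 and 350.0 FPKM in TW-1-1. AS2 (NM_001248792.1), an asparagine synthetase that loads nitrogen for transport, had 8.01, 48.5 and 30.6 FPKM in TW-1-2, against 3.15, 6.16 and 7.68 FPKM in TW-1-1 (1.92 ± 0.62). L-ascorbate oxidase homolog XM_003527453.3 was higher at 2.15 ± 0.71, with all 3 TW-1-1 libraries at or near 1 FPKM or below.

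Further examples were taken from the most abundant named DEGs that were higher. The ADP,ATP carrier 1 gene (NM_001289328.1), whose protein exports ATP from mitochondria, had 149.8, 174 and 138 FPKM in TW-1-2, against 61.5, 54.2 and 86.1 FPKM in TW-1-1. Replicate 1 was in the middle of its stage, and the log2 fold change was 1.20 ± 0.23 with it and 1.22 without it (adjusted p = 0.043 in limma). Calreticulin-1 (NM_001249422.2), a chaperone of the endoplasmic reticulum, had 75.9, 168 and 153 FPKM in TW-1-2, against 47.0, 42.7 and 64.4 FPKM in TW-1-1 (1.29 ± 0.34). Cytosolic malate dehydrogenase (NM_001249732.1) had 38.9, 124 and 124 FPKM in TW-1-2, against 27.5, 23.9 and 60.3 FPKM in TW-1-1, and replicate 1 lay within the TW-1-1 range.

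Aquaporins, the water channels of membranes, moved in both directions. Of 33 genes tested, 5 were DEGs higher and 2 were DEGs lower, with a median of 0.47 and no overlap for any of the 7. TIP4-1-like (XM_006580945.2), of the vacuolar membrane type, had 1.01, 28.1 and 12.1 FPKM in TW-1-2, against 0.90, 0.33 and 0.89 FPKM in TW-1-1, a log2 fold change of 2.44 ± 0.89. PIP2-1 (XM_003554328.3, with the RefSeq symbol PIP2-8), of the plasma membrane type, had 14.2, 28.6 and 14.1 FPKM in TW-1-2, against 39.6, 71.6 and 46.7 FPKM in TW-1-1, a log2 fold change of -1.46 ± 0.34 (unadjusted p = 0.00357 in limma). The other lower DEG was PIP-type 7a at -1.09.

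Few cell division genes were DEGs. Of 59 genes of the cell cycle and DNA replication, 5 were DEGs higher and none was lower, and the median was 0.27. That share is not far from the 5.17% of annotated genes that were DEGs higher, and no more is read from it. All 5 DEGs act at entry into mitosis, being 4 B-type or mitotic cyclins and a B-type cyclin-dependent kinase. The kinase, B2-2-like (XM_003544950.3), had 0.49, 3.57 and 3.30 FPKM in TW-1-2, against 0.17, 0.23 and 0.14 FPKM in TW-1-1, so its level stayed low (1.39, unadjusted p = 0.0133 in limma). Among 22 core histone genes, 1 was a DEG lower and none was higher, with a median of 0.04. The summed core histone level was 5070, 1748 and 1778 FPKM in TW-1-2 and 3494, 4341 and 3824 FPKM in TW-1-1, with replicate 1 above and the other two below all TW-1-1 libraries.

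Other hormone lists were also counted. Of 40 auxin genes, 3 were DEGs higher, namely the auxin-responsive genes IAA27-like (1.49) and AUX28 (1.13) and auxin transporter-like protein 3 (1.62), and the median was 0.29. None of 12 gibberellin genes was a DEG, with a median of 0.49. The most abundant of them, gibberellin-regulated protein 4-like (NM_001253155.2), had 147, 3565 and 3525 FPKM in TW-1-2 and 600.5, 47.7 and 503 FPKM in TW-1-1. Its value was low in replicate 1 and in replicate 2 of TW-1-1, and its log2 fold change of 2.33 ± 1.46 did not pass (unadjusted p = 0.154 in limma). None of 8 abscisic acid genes was a DEG, and their median was -0.12.

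Inositol and phytate metabolism, the pathway in which both mutants carry their lesion, was followed in 17 genes. Of these, 1 was a DEG higher and none was lower, which is close to the share of all annotated genes, and the median was 0.07. The DEG was probable inactive purple acid phosphatase 27-like (NM_001289384.1), with 1.17, 34.0 and 20.1 FPKM in TW-1-2, against 0.96, 0.87 and 0.62 FPKM in TW-1-1, a log2 fold change of 2.69 ± 0.95. Replicate 1 was again close to the imbibed seeds. The gene with the symbol MIPS (NM_001248320.1) had 2.23, 1.73 and 6.22 FPKM in TW-1-2 and 3.49, 2.36 and 7.01 FPKM in TW-1-1 (log2 fold change -0.31 ± 0.46, unadjusted p = 0.527 in limma), and MIPS4 had 28.4, 2.14 and 7.30 FPKM in TW-1-2 and 2.54, 4.14 and 17.8 FPKM in TW-1-1. The gene that carries the deletion was not matched to a row of the table here. The kinases that add phosphates to inositol were at low to moderate levels, and ITPK3 had 9.47, 10.7 and 12.7 FPKM in TW-1-2, against 16.2, 16.1 and 13.8 FPKM in TW-1-1, without overlap but with a log2 fold change of only -0.46 ± 0.19.

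Of the remaining lists, reserve mobilization enzymes had 2 DEGs higher and 1 lower among 30 genes. The lower one was beta-amylase 1, an enzyme of starch breakdown, at -1.05. Catalase, ascorbate and peroxiredoxin genes had 2 DEGs higher among 21. Without overlap between the stages, 1 gene of that list was higher and 2 were lower. The 2 lower ones were catalases, which missed the fold threshold at -0.65 (CAT5) and -0.61 (CAT4). CAT5 had 335, 265 and 215 FPKM in TW-1-2, against 456, 404 and 404 FPKM in TW-1-1. None of 30 glutathione S-transferases or 34 cytosolic ribosomal protein genes was a DEG. Fermentation and hypoxia genes had 1 DEG higher and 1 lower among 9. The shares of DEGs in the auxin, reserve mobilization, cell cycle and expansin lists were not far from the 5.17% of all annotated genes, and no more is read from them.

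Without replicate 1 of TW-1-2, the lists were counted again at the adjusted p-value in limma, an alternative added after seeing the data. Among the lists with lower DEGs, 3 RFO synthesis genes and 2 small heat shock proteins were lower and none was higher, with medians of -1.07 and -1.12. Among the lists with higher DEGs, 4 ACC oxidase and synthase genes (median 1.82), 2 class III peroxidases, 7 aquaporins, 4 expansin and xyloglucan genes, 6 auxin genes and 8 reserve mobilization genes were higher and none was lower. Cellulose and arabinogalactan genes had 7 higher and 1 lower, cell cycle genes had 11 higher and 1 lower, and core histones had 5 in each direction. In inositol and phytate metabolism 3 genes were higher and none was lower, and the list median turned to -0.16. Fermentation and hypoxia genes had none in either direction, with a median of -0.43. Seed storage protein genes had 1 higher and 1 lower, photosynthesis genes had 1 higher and 2 lower, and isoflavone and flavonoid genes had 3 higher and 2 lower. Genes of RFO and sucrose breakdown had 1 higher and none lower, and catalase, ascorbate and peroxiredoxin genes had 2 higher and none lower.

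The makeup of the seed tissue was followed by marker lists. Storage and oil body proteins mark cotyledon cells, and 2 of the 25 storage protein genes matched and none of the 8 oil body genes were at 0 in all 6 libraries. The summed storage protein level ranged from 2408 to 4462 FPKM in TW-1-2 and from 3392 to 4675 FPKM in TW-1-1, and the oil body sum from 2800 to 6940 FPKM in TW-1-2 and from 3711 to 9483 FPKM in TW-1-1. None of 7 oil body genes tested was a DEG, with a median of -0.35. Photosynthesis genes, which mark green tissue, summed to 190, 524 and 569 FPKM in TW-1-2 and 164, 151 and 711 FPKM in TW-1-1, and 10 of 14 genes had a positive log2 fold change, with a median of 0.58. None was a DEG higher and 2 were DEGs lower, both of them psbP domain-containing protein 4 genes. Cell cycle genes summed to 477 to 617 FPKM in TW-1-2 and 591 to 887 FPKM in TW-1-1. A large part of that sum came from 1 gene, kinesin-like protein KIN12A. It had 322, 175 and 299 FPKM in TW-1-2 and 474, 272 and 599 FPKM in TW-1-1. Of the 59 cell cycle genes, 41 had a positive log2 fold change, so the sum does not stand for most members. The sums overlapped between the stages in each of these lists, and the part of tissue makeup in the results was not tested.

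The genes called without replicate 1 of TW-1-2 served to place every library, a comparison chosen after the data had been seen. For each library the median difference from the TW-1-1 mean was taken over the 1581 higher and the 372 lower genes. By construction it was large in replicates 2 and 3 of TW-1-2, at 1.47 and 1.33 over the higher genes and -1.09 and -1.22 over the lower ones. Replicate 1, which played no part in the choice of these genes, was at 0.04 over the higher genes, within the -0.18 to 0.15 of the TW-1-1 libraries. Over the lower genes it was at -0.39, below the -0.03 to 0.07 of the TW-1-1 libraries. It was above the TW-1-1 mean for 55.6% of the higher genes and below it for 81.2% of the lower genes. It lay beyond all 3 TW-1-1 libraries for 30.6% and 68.5% of them. The same shares over all genes tested are not given here, and the TW-1-1 libraries took part in the choice of these genes. These shares are therefore descriptions only. Replicate 1 thus differed from TW-1-1 in the direction of its stage in a larger share of the lower than of the higher genes. That shift was not particular to stage 2. Over the same lower genes, replicate 2 of TW-1-M-1, a library of stage 1, was at -0.50. It lay beyond all 3 TW-1-1 libraries for 74.5% of them. Replicates 1 and 3 of TW-1-M-1 were at -0.12 and -0.87.

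**Figure D4:**
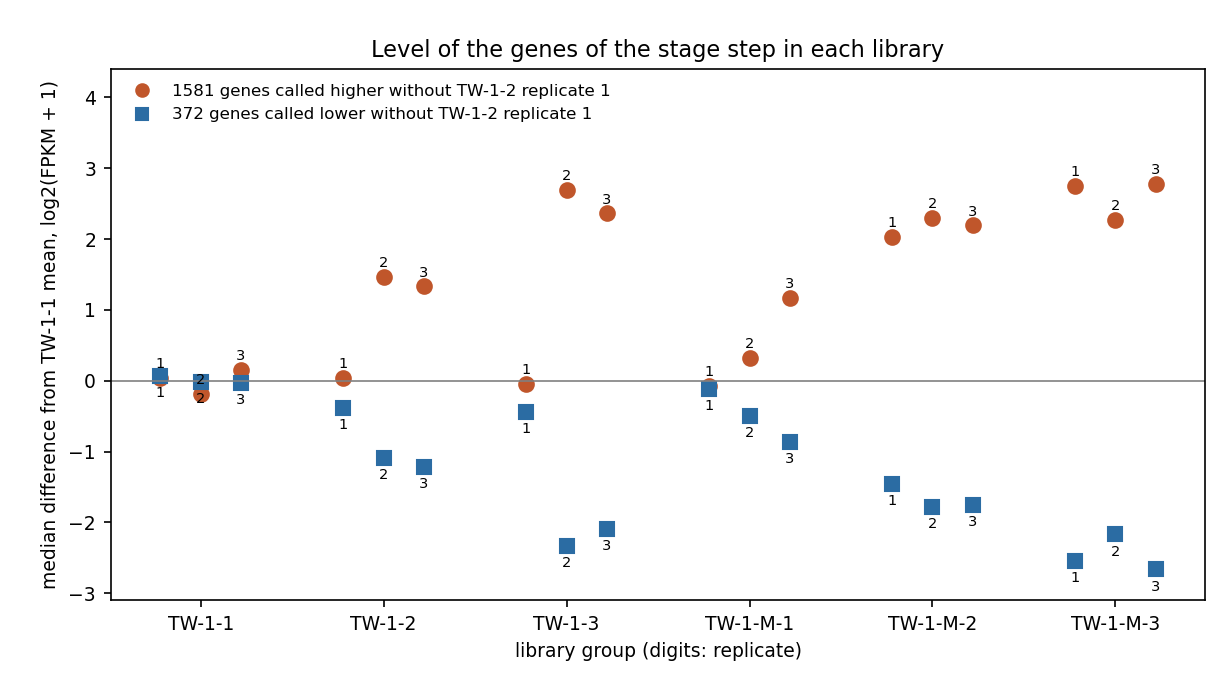
Median difference of each of the 18 libraries from the TW-1-1 mean on the log2(FPKM + 1) scale (vertical axis), over 1581 genes higher (orange circles) and 372 genes lower (blue squares) at the adjusted p-value without replicate 1 of TW-1-2; digits are replicate numbers. Replicate 1 of TW-1-2 lies at 0.04 and -0.39, next to replicate 1 of TW-1-3 at -0.04 and -0.44, while the other TW-1-2 libraries lie at 1.47 and -1.09 (replicate 2) and at 1.33 and -1.22 (replicate 3).

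The same measure ran along the stages in the other libraries. Replicates 2 and 3 of TW-1-3 were at 2.69 and 2.36 over the higher genes, whereas replicate 1 of TW-1-3 was at -0.04. Of the TW-1-M libraries, those of stage 1 were at -0.07, 0.32 and 1.16, those of stage 2 at 2.04, 2.30 and 2.19, and those of stage 3 at 2.74, 2.27 and 2.78. Thus replicate 3 of TW-1-M-1 stood close to the reactivated TW-1 seeds.

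The number of expressed genes, those with at least 1 FPKM, was 22368, 23457 and 23552 in TW-1-2 and 21531, 21206 and 22618 in TW-1-1. The mean was 23126 ± 658 in TW-1-2 and 21785 ± 739 in TW-1-1 (SD, n = 3 each). The difference of 1341 genes did not pass an exact two-sided permutation test (p = 0.2), which cannot go below 0.1 with 3 libraries against 3. The 10 most abundant genes took 12.8 to 15.3% of the summed FPKM in TW-1-2 and 12.9 to 17.0% in TW-1-1.

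The step was set beside the same step in TW-1-M, whose libraries are separate from those of TW-1. In TW-1-M-2 against TW-1-M-1, 4477 genes (16.5%) were higher and 3040 genes (11.2%) were lower at the adjusted p-value in limma. Of the 547 higher DEGs of TW-1, 436 (79.7%) were called higher in TW-1-M, which is 9.74% of the TW-1-M calls in that direction, and none was called lower. Of the 214 lower DEGs of TW-1, 142 (66.4%) were called lower in TW-1-M, which is 4.67% of its calls, and 3 were called higher. The DEGs of TW-1 had a median log2 fold change in TW-1-M of 1.87 for the higher and -1.40 for the lower ones. These values are a description, since the DEGs had to pass a threshold in TW-1.

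For the lists, the values of TW-1-M and TW-1 side by side were a median of -2.20 and -1.09 for RFO synthesis, -2.57 and -0.71 for LEA and seed maturation proteins, -2.17 and -0.54 for small heat shock proteins, 2.10 and 1.23 for tubulins and actins, and 2.23 and 1.02 for ACC synthases and oxidases. At the adjusted p-value, 7 of 8 RFO genes, 32 of 39 LEA genes and 19 of 21 small heat shock genes were lower in TW-1-M, and 24 of 27 tubulins and actins were higher. Stachyose synthase had 8.62, 9.96 and 10.2 FPKM in TW-1-M-2, against 72.2, 75.5 and 44.0 FPKM in TW-1-M-1. At the same stage in TW-1 it was still at 87.7 FPKM or above. The difference between the 2 steps was tested as an interaction of line and stage over 12 libraries, and it passed for 1 of the 27150 genes (0.00368%) in limma, although 2811 genes had an unadjusted p-value below 0.05. For stachyose synthase the interaction was -1.42 with an adjusted p-value of 0.36, and for galactinol synthase 1 it was -1.85 with an adjusted p-value of 0.31. A difference between the steps of the 2 mutants was thus not shown for these genes. The interaction does not test whether the levels of the mutants differ at one stage.

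PIP2-1, which was lower in TW-1, was one of the 3 DEGs called in the other direction in TW-1-M. It had 93.3, 65.1 and 59.1 FPKM in TW-1-M-2, against 14.9, 19.1 and 20.7 FPKM in TW-1-M-1, a log2 fold change of 1.92 (adjusted p = 0.00496 in limma). In both mutants the stages were separated in every library, in opposite directions. The interaction was 3.38, and it did not pass the adjusted p-value (0.0938 in limma). The other two genes, XM_006586590.2 and XM_014778393.1, have no name in the annotation used here, and their interactions were 2.15 and 2.04 with adjusted p-values of 0.274 and 0.30 in limma. KTI1, in contrast, was lower in both, with 103, 72.2 and 63.5 FPKM in TW-1-M-2, against 254, 247 and 121 FPKM in TW-1-M-1. Ferritin (NM_001250120.1), an iron store, had 79.0, 75.0 and 96.4 FPKM in TW-1-2, against 197, 120.0 and 246 FPKM in TW-1-1, a log2 fold change of -1.11 ± 0.29. In TW-1-M its log2 fold change was -0.28 (adjusted p = 0.323 in limma), and the difference between the steps was not shown either, with an interaction of 0.83 and an adjusted p-value of 0.46.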

How the data were processed

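RNA of whole soybean seeds was depleted of ribosomal RNA, copied to cDNA and sequenced as paired ends. The authors trimmed the reads with Trimmomatic, aligned them with TopHat to the soybean assembly named in their methods, and computed FPKM with cuffquant and cuffnorm; tool versions are not given in the sources used here. The deposited table holds normalized FPKM per gene and library, with no counts, so no depth, interval or floor is given. The labels and the methods name different RNA extraction reagents.

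Genes with at least 1 FPKM in 3 of the 18 libraries were compared as log2(FPKM + 1) with limma 3.58.1 in R 4.3.3 (lmFit, eBayes with trend, two-sided, Benjamini-Hochberg adjustment over all genes), on the 6 libraries of the comparison. The interaction used 12 libraries. The fit was tested on simulated data. Names came from the supplement of the study (3120 genes) and RefSeq symbols of assembly Glycine_max_v4.0. No coordinates or sequences were used, and promoters were not analysed here.

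Members and gene lists were chosen with earlier results of these data known. Named genes were those of the study's own tables, the 10 named DEGs per direction with the largest non-overlapping change, the 10 most abundant, up to 4 abundant members per list, and the inositol and phytate genes; other DEGs of a list, the 3 genes called in opposite directions and XM_003521922.3 were named after their values were seen. Alternatives were another pseudocount, filters, scalings, a replicate block, wider fits, no trend, a fold change of mean FPKM and leaving out each library. Pseudocounts were 1 and 0.1.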

Additional observations from a re-analysis of the deposited data

Results flagged for a closer look

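One gene met a rule for a closer look, because its step differed between the 2 mutants in the interaction test of line and stage. XM_003521149.3, annotated as uncharacterized LOC100816240, had 0, 0.26 and 0.25 FPKM in TW-1-2, was listed at 0 in all 3 TW-1-1 libraries, and had 4.90, 6.84 and 5.40 FPKM in TW-1-M-2, against 0.17, 0 and 0.14 FPKM in TW-1-M-1. The interaction was 2.38 on the log2(FPKM + 1) scale (adjusted p = 0.00909 in limma). At the next stage the gene was at 0.22, 12.1 and 14.8 FPKM in TW-1-3. It was the only gene that passed, and the count of such genes fell to 0 in some of the alternatives given in the next part. No other result of the comparison was flagged. The flagging rule did not search groups of 3 libraries for single outlying libraries. Replicate 1 of TW-1-2 was described apart from that rule, from the correlations given above.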

How the results depend on the processing

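The main comparison gave 761 DEGs, 547 higher and 214 lower, and no gene at the adjusted p-value. With a pseudocount of 0.1 the counts were 1645, 1266 and 379, and with the fold change taken as a ratio of mean FPKM 1682, 1290 and 392. A fit of all 18 libraries gave 380 DEGs, 230 of them higher, and 1 gene at the adjusted p-value, and a fit of the 9 TW-1 libraries gave 230, 116 and 114. Over the alternatives that left out 1 library, the DEGs ranged from 363 to 2727, the higher ones from 192 to 2070, the lower ones from 165 to 657, and the genes at the adjusted p-value from 0 to 1953, the highest of each without TW-1-2 replicate 1. Centring each library on its median shifted the median of all genes to -0.05 and gave 487 higher and 295 lower. No list median moved by more than the spread between libraries when single libraries were left out, and between 1 and 7 of the 28 did with another pseudocount, the mean FPKM filter, quantile normalization or the ratio of means. Of 45 named DEGs, between 15 (9 TW-1 libraries) and 45 were called again in the single alternatives, and none changed sign. The interaction count was 1, and it was 0 with a pseudocount of 0.1, 0 with the replicate block and 0 in the fit of all 18 libraries; leaving out 1 library gave 0 to 5. The difference in expressed genes was 1341, and 586 when any FPKM above 0 counted, with an exact permutation p of 0.2 for both. The causes were not tested. Pairing of the libraries by equal replicate numbers was not shown, as their deviations from the stage means correlated at -0.02, -0.30 and 0.38. The outlying replicate 1 of TW-1-2 shapes the deviations of its stage, so these values cannot settle the pairing. A replicate block gave 823 DEGs and none at the adjusted p-value. FPKM without counts give no view of which low values depth limits.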

Other observations

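Further gene groups (3 lists) were chosen after their values had been seen and are described without a test. Genes of mevalonate and sterol synthesis, which make membrane sterols, were positive in 20 of 21 genes tested, with 8 DEGs higher, none lower and a median log2 fold change of 0.90. They summed to 62.3, 282 and 219 FPKM in TW-1-2 and 65.4, 41.1 and 74.3 FPKM in TW-1-1, so replicate 1 of TW-1-2 lay within the TW-1-1 range. Without it, 13 were higher at the adjusted p-value in limma, and 13 were higher in TW-1-M. Chaperones, disulfide isomerases and oligosaccharyltransferase subunits of the endoplasmic reticulum, which fold and glycosylate secreted proteins, were positive in 15 of 16 genes, with 5 DEGs higher, none lower and a median of 0.91, and they summed to 548, 956 and 874 FPKM in TW-1-2 and 421, 342 and 548 FPKM in TW-1-1. Leaving out replicate 1 of TW-1-2 gave 6 higher and none lower at the adjusted p-value in limma, with a median of 1.21. Of 10 genes of the methyl cycle, which supplies methyl groups, 4 were DEGs higher and none was lower, with a median of 0.51. The fit that left out replicate 1 of TW-1-2 gave 3 of them higher and none lower at the adjusted p-value, with a median of 0.45.

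AOC1 (NM_001254432.1), an allene oxide cyclase of jasmonate synthesis picked for its small p-value, had 8.22, 10.4 and 9.17 FPKM in TW-1-2, against 2.63, 1.90 and 2.56 FPKM in TW-1-1, and replicate 1 was near the other two. Its log2 fold change was 1.61 ± 0.21 (unadjusted p = 9.51e-05, adjusted p = 0.372 in limma).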
